A study of Homo sapiens with 30 samples.

Results

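SON and SRRM2 encode the proteins on which nuclear speckles are built, and their RNA was followed here across all 30 libraries of the series. The 2 genes were matched by Ensembl ID (SON, ENSG00000159140; SRRM2, ENSG00000167978) among 60664 genes with raw counts in every library. Both passed the filter on low counts in every comparison. For the 18 libraries of wild-type and speckle knock-in cells, the counts of their exon bins were also used. A bin is a stretch between neighbouring exon boundaries of the annotated transcripts, and a read counts in each bin that it touches. SON has 48 bins and SRRM2 has 91, of 652720 bins in all.

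Nuclear speckles are dense bodies between chromosomes that hold splicing factors and newly made polyadenylated RNA. SON is a large protein with long repeats and an arginine- and serine-rich (RS) domain, and it helps splice introns with weak splice sites. SRRM2 is a large RS-rich protein whose N-terminal part sits in the active spliceosome, while most of its length is disordered. Removal of both proteins together is known to disperse speckles. In each gene 1 very long coding exon carries most of the disordered sequence.

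The study asked how DNA methylation, the insulator protein CTCF and speckles act together on transcription and splicing. Wild-type K562 cells (a chronic myeloid leukemia line) and wild-type HCT116 cells (a colorectal carcinoma line) received 10 µM DNMT1i, a noncovalent inhibitor of the maintenance DNA methyltransferase DNMT1, or 0.1% DMSO, for 3 days. The speckle knock-in is a single-cell clone of K562 in which SON carries an N-terminal dTAG and SRRM2, edited afterwards, a C-terminal dTAG that replaces its last residues. It received 500 nM dTAG-13, a molecule that joins the tag (a mutant FKBP12) to the ubiquitin ligase subunit CRBN, or 0.1% DMSO, for 6 hours. HT-CTCF cells are a single-cell clone of HCT116 with HaloTag on both copies of CTCF, and were treated for 1 day with 10 µM DNMT1i or 0.1% DMSO, with or without HaloPROTAC3, which joins HaloTag to the ubiquitin ligase subunit VHL. HaloPROTAC3 was given some hours ahead of DNMT1i or DMSO and kept in the medium with it, so exposure to it was longer than 1 day. Each of the 10 groups had 3 libraries from separate cultures. The RNA does not show whether the tagged proteins were lost.

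Libraries of wild-type and speckle cells held 16173008 to 21228534 counts in genes and HT-CTCF libraries 4243092 to 9407430. Erythroid markers (HBG1, HBG2, HBZ, GATA1, TAL1, KLF1) summed to 325 to 583 library-scaled counts (CPM) in the 12 K562 libraries and 0.894 to 4.26 CPM in the 18 HCT116 libraries. Epithelial markers summed to 2989 to 4193 CPM in HCT116 libraries and 486 to 1053 CPM in K562 libraries, with the colon markers VIL1 and CDX1 at or near 0 in both lines. Wild-type K562 DMSO replicate 3 stood apart from its group. Its chi-square over degrees of freedom was 29.7 and 31.4 against the other replicates, which gave 2.48 between themselves. Gene-level values without that library are given beside the comparisons that use it. In the knock-in dTAG-13 group, replicate 3 gave 14.3 and 9.92 against replicates 1 and 2, which gave 2.11 between themselves.

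The sequences below are the edges of the genes that the results turn on, read from hg38 with GENCODE annotation, each 5′ to 3′ on the plus strand. SON lies on chromosome 21. Its principal transcript, SON-202, spans chr21:33543038-33577481, and the N-terminal tag joins it at the start codon in exon 1. The coding part of exon 1 (chr21:33543093-33543169, 77 bases) is shown with the start codon in capitals.
SON exon 1 from the start codon: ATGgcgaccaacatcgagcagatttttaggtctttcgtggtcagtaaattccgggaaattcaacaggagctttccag
SRRM2 lies on chromosome 16. Its principal transcript, SRRM2-201, spans chr16:2752638-2771412, and the C-terminal tag joins it near the stop codon, which lies 7 coding bases into the last exon. Exon 14, intron 14 and the coding end of exon 15 (chr16:2770604-2770867) are shown with exon bases in capitals, the stop codon last.
SRRM2 exon 14 to the stop codon: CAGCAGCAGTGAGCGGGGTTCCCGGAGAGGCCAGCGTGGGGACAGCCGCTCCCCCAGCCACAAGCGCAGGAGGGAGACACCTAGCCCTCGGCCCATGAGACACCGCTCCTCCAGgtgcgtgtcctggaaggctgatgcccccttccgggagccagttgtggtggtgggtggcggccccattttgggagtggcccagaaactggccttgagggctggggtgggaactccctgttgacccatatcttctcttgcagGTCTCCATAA
Intron 12 of SRRM2 (chr16:2769285-2770351, 1067 bases, 61.7% G and C) is the stretch where bin use moved with dTAG-13. Its 2 edges are shown with exon bases in capitals.
SRRM2 exon 12 to intron 12: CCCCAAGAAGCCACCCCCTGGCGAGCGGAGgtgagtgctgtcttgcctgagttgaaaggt
SRRM2 intron 12 to exon 13: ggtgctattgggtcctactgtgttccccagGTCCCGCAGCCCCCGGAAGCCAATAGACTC
Within that intron, annotated transcripts that keep the intron, and 1 annotated as a target of nonsense-mediated decay (NMD), divide the sequence into 11 bins, 067 to 077. Bin 072 (chr16:2769628-2769861, 234 bases) lies just before the exon of the NMD transcript, which bins 073 and 074 make up. Capitals mark its last 2 bases, next to that exon.
SRRM2 bin 072: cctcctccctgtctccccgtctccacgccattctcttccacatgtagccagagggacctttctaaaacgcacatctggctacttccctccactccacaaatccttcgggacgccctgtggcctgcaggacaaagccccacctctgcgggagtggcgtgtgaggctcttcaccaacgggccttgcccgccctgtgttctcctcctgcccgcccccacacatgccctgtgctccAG

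Both genes were abundantly expressed in every library. SON was counted 1987 to 17972 times per library, which is 437 to 1033 CPM after scaling by trimmed means (TMM), a 2.36-fold range. SRRM2 was counted 3990 to 23913 times, 655 to 1466 CPM, a 2.24-fold range. CPM here is relative to all RNA in a library, so a change in the whole RNA content of the cells would not be seen.

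SON was higher in each of the 12 K562 libraries, wild-type and knock-in (690 CPM or more), than in each of the 18 HCT116 libraries (606 CPM or less). The group means were 952 ± 74.7 CPM with DNMT1i and 990 ± 29.97 CPM with DMSO in wild-type K562 cells (SD, n = 3 each), 820 ± 35.8 CPM with dTAG-13 and 720 ± 28.3 CPM with DMSO in knock-in cells, and 575 ± 26.4 CPM with DNMT1i and 550 ± 19.8 CPM with DMSO in wild-type HCT116 cells. In HT-CTCF cells with HaloPROTAC3 SON averaged 479 ± 18.2 CPM with DNMT1i and 543 ± 45.3 CPM with DMSO, and without it 451 ± 9.80 CPM with DNMT1i and 465 ± 30.5 CPM with DMSO. Ordered by mean, the ranges of neighbouring groups overlapped except at 4 steps. These were wild-type K562 DNMT1i over knock-in dTAG-13, knock-in dTAG-13 over knock-in DMSO, knock-in DMSO over HCT116 DNMT1i, and, within HT-CTCF cells with HaloPROTAC3, DNMT1i under DMSO.

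SRRM2 did not sort by line in this way. Its means were 1128 ± 75.8 CPM with DNMT1i and 1325 ± 122 CPM with DMSO in wild-type K562 cells, 1104 ± 18.1 CPM with dTAG-13 and 807 ± 73.6 CPM with DMSO in knock-in cells, and 704 ± 47.6 CPM with DNMT1i and 952 ± 79.9 CPM with DMSO in wild-type HCT116 cells (SD, n = 3 each). In HT-CTCF cells it averaged 864 ± 66.7 CPM with DNMT1i and 1124 ± 121 CPM with DMSO in the presence of HaloPROTAC3, and 905 ± 18.3 CPM with DNMT1i and 851 ± 52.1 CPM with DMSO in its absence. Wild-type K562 DMSO was highest and HCT116 DNMT1i lowest. In order of the means, neighbouring groups failed to overlap at 2 steps only, wild-type K562 DNMT1i under K562 DMSO and knock-in dTAG-13 over HCT116 DMSO. Across the 10 group means the log2 levels of SON and SRRM2 correlated with r = 0.62, a description over groups that share 4 lines and carries no p.

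**Figure D1:**
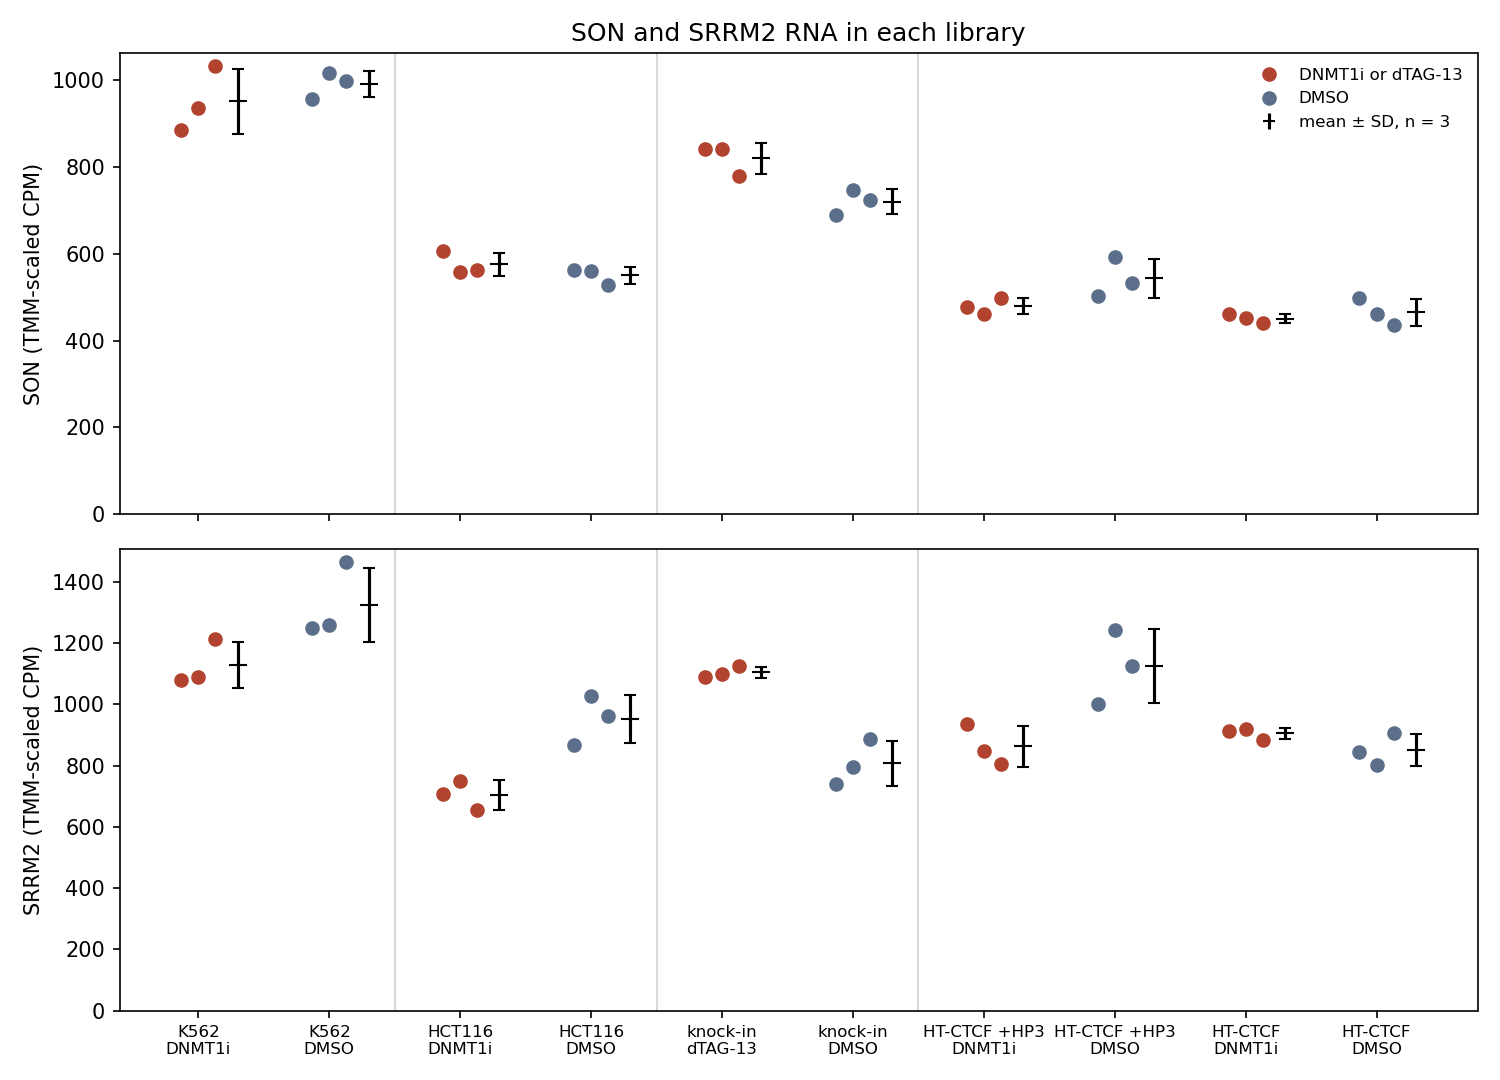
SON (top) and SRRM2 (bottom) RNA in TMM-scaled CPM, 1 point per library, with the mean and SD of 3 libraries beside each group. SON lies between 886 and 1033 CPM in wild-type K562 cells and at or under 606 CPM in every HCT116 library, while SRRM2 ranges overlap between the lines.

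Per kilobase of annotated exon bins (12685 bases for SON, 12969 for SRRM2), SRRM2 was the higher of the pair in all 30 libraries, by 1.04 to 2.06 times. The ratio of the 2 levels averaged 1.16 with DNMT1i and 1.31 with DMSO in wild-type K562 cells, 1.20 with DNMT1i and 1.70 with DMSO in HCT116 cells, and 1.32 with dTAG-13 and 1.096 with DMSO in knock-in cells. In HT-CTCF cells it ranged from 1.77 to 2.02 over the 4 group means. The size of the ratio depends on the length used, and with only the bins that carry reads (10824 bases for SON, 10105 for SRRM2) it ran from 1.14 to 2.26.

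The genes whose log2 level over the 10 group means was most like that of SON were CEP192 (Pearson r = 0.994), which builds centrosomes, HMBOX1 (r = 0.991), a homeobox telomere-binding protein, and MICAL2 (r = 0.989), an actin-oxidizing enzyme. For SRRM2 they were PRRC2C (r = 0.944), PRKDC (r = 0.930), the catalytic subunit of DNA-dependent protein kinase, and HELZ (r = 0.913), an RNA helicase. These are the highest of 8873 genes over 10 points, and the points share their cell lines.

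dTAG-13 was given to degrade both proteins, and the RNA of SRRM2 rose within 6 hours. SRRM2 had 1090, 1099 and 1124 CPM in the 3 dTAG-13 libraries, against 740, 796 and 886 CPM in the DMSO libraries of the same clone. All dTAG-13 libraries were above all DMSO libraries. The log2 fold change was 0.41 ± 0.07 (SE), a 1.33-fold rise, with an adjusted p of 0.00864 in edgeR's quasi-likelihood test. SON had 841, 841 and 779 CPM with dTAG-13, against 690, 747 and 724 CPM with DMSO. Its groups did not overlap either, but the log2 fold change of 0.15 ± 0.05 did not pass the test over all genes (edgeR adjusted p = 0.159). Of all 14104 genes tested 4.67% were called, and 1.57% were called higher.

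The SRRM2 call was near the threshold when libraries were left out. The adjusted p (edgeR) was 0.0506 without dTAG-13 replicate 2 and 0.0601 without DMSO replicate 1, and the log2 fold change stayed between 0.36 and 0.50 over the 6 fits. With replicate numbers as a block, SON passed as well (log2 fold change 0.15, edgeR adjusted p = 0.0177), although these numbers were not shown to pair the cultures.

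**Figure D2:**
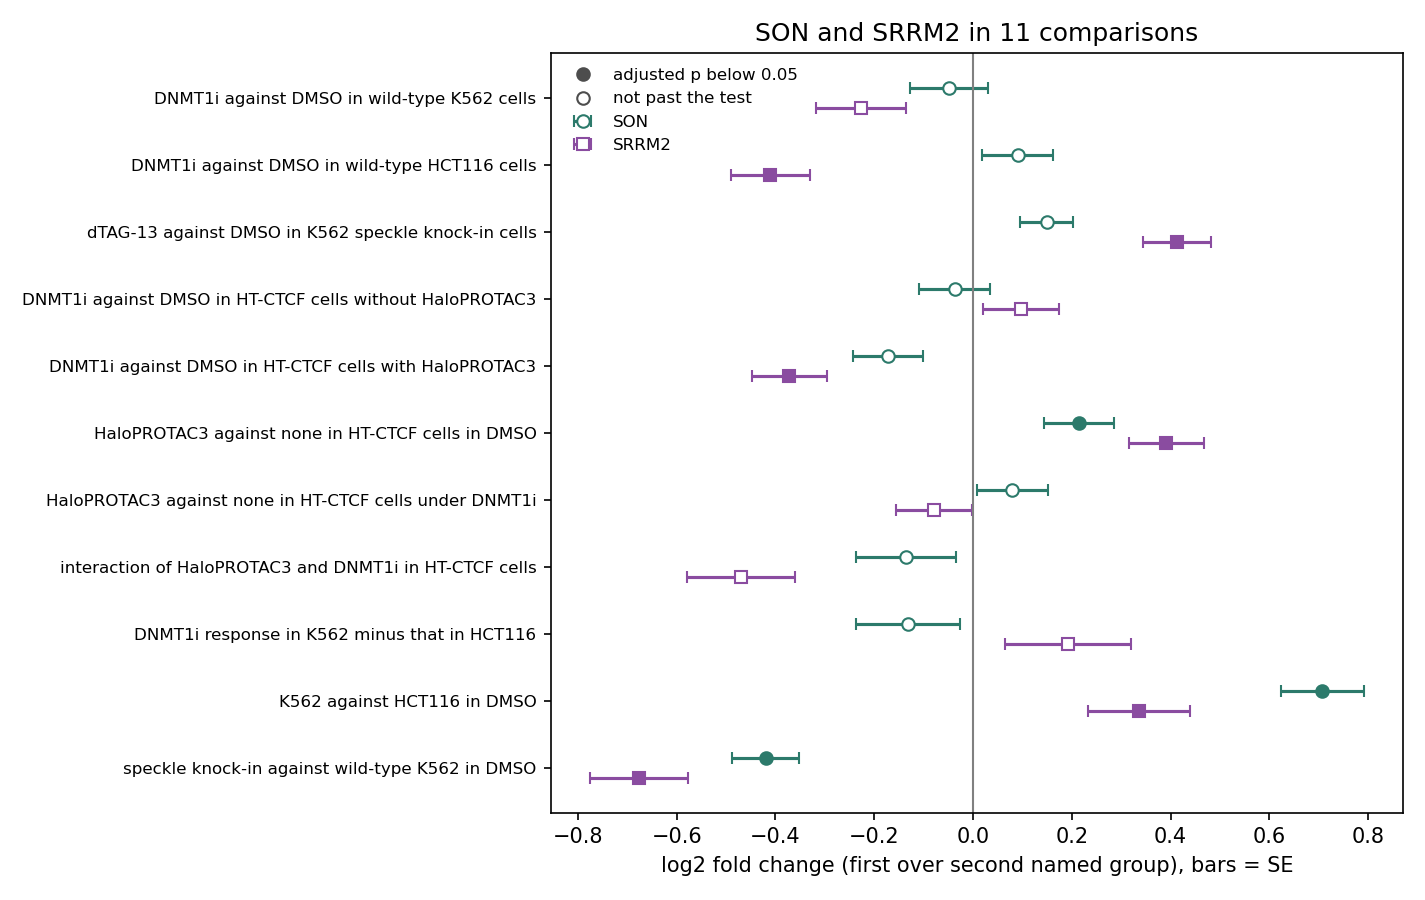
Log2 fold change of SON (circles) and SRRM2 (squares) in 11 comparisons, first-named over second-named condition, with bars of 1 SE and filled symbols where the adjusted p is below 0.05. SRRM2 lies below 0 with DNMT1i in HCT116 cells (−0.41) and above 0 with dTAG-13 (0.41), and the SON values with DNMT1i are all open symbols.

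Apart from its level, the make-up of SRRM2 RNA moved with dTAG-13 at intron 12. Of 49 SRRM2 bins tested, 2 were called and both fell relative to the rest of the gene. For comparison, 0.131% of all 184300 bins tested were called, and 0.0358% were called lower. Bin 072, shown above, held 12, 8 and 7 counts with dTAG-13 and 24, 21 and 23 counts with DMSO. Its use relative to the gene fell by 1.94 ± 0.34 on the log2 scale (edgeR adjusted p = 0.000158). Bin 074, the longer part of the NMD exon, held 6, 12 and 6 counts with dTAG-13 and 21, 24 and 18 counts with DMSO, a log2 change of −2.01 ± 0.35 (edgeR adjusted p = 0.000176). Both calls held in each of the 6 fits that left out 1 library, with log2 changes from −2.26 to −1.72 for bin 072 and from −2.43 to −1.77 for bin 074.

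The 2 called bins are not separate pieces of evidence, because a read across their border counts in both. Bin 073, the first 33 bases of the NMD exon, lies between them and did not pass the filter on low counts, with 3, 5 and 5 counts with dTAG-13 and 14, 13 and 8 counts with DMSO. Summed over its 11 bins, intron 12 held 39, 39 and 41 counts in dTAG-13 libraries and 67, 80 and 80 counts in DMSO libraries. As a share of SRRM2 bin counts this was 0.125 ± 0.008% with dTAG-13 and 0.369 ± 0.029% with DMSO. The counts were lower in every dTAG-13 library although SRRM2 as a whole was higher there.

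Intron 11 of SRRM2, the neighbouring one downstream of the long exon, also took a smaller share, 0.0314 ± 0.0007% with dTAG-13 (9, 10 and 11 counts) and 0.0859 ± 0.0138% with DMSO (14, 20 and 19 counts). All 42 bins outside the exons of the principal SRRM2 transcript together held 0.547 ± 0.019% of its counts with dTAG-13 and 0.867 ± 0.077% with DMSO. Those sums were chosen after the bin tests were seen and have no test of their own, and 3 libraries against 3 cannot reach an exact permutation p under 0.1.

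SON bins showed no call with dTAG-13 among the 31 tested, where 3 had an unadjusted p below 0.05 (edgeR). Its 17 bins outside principal exons held 2.44 ± 0.18% of SON counts with dTAG-13 and 2.95 ± 0.25% with DMSO. Bin 014, where the short isoform SON-203 ends, held 1.88 ± 0.20% with dTAG-13 and 2.27 ± 0.15% with DMSO, and bin 017, the end of SON-201, 0.256 ± 0.042% with dTAG-13 and 0.358 ± 0.062% with DMSO. The libraries of the 2 groups did not overlap at either end, but neither bin passed the test.

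**Figure D3:**
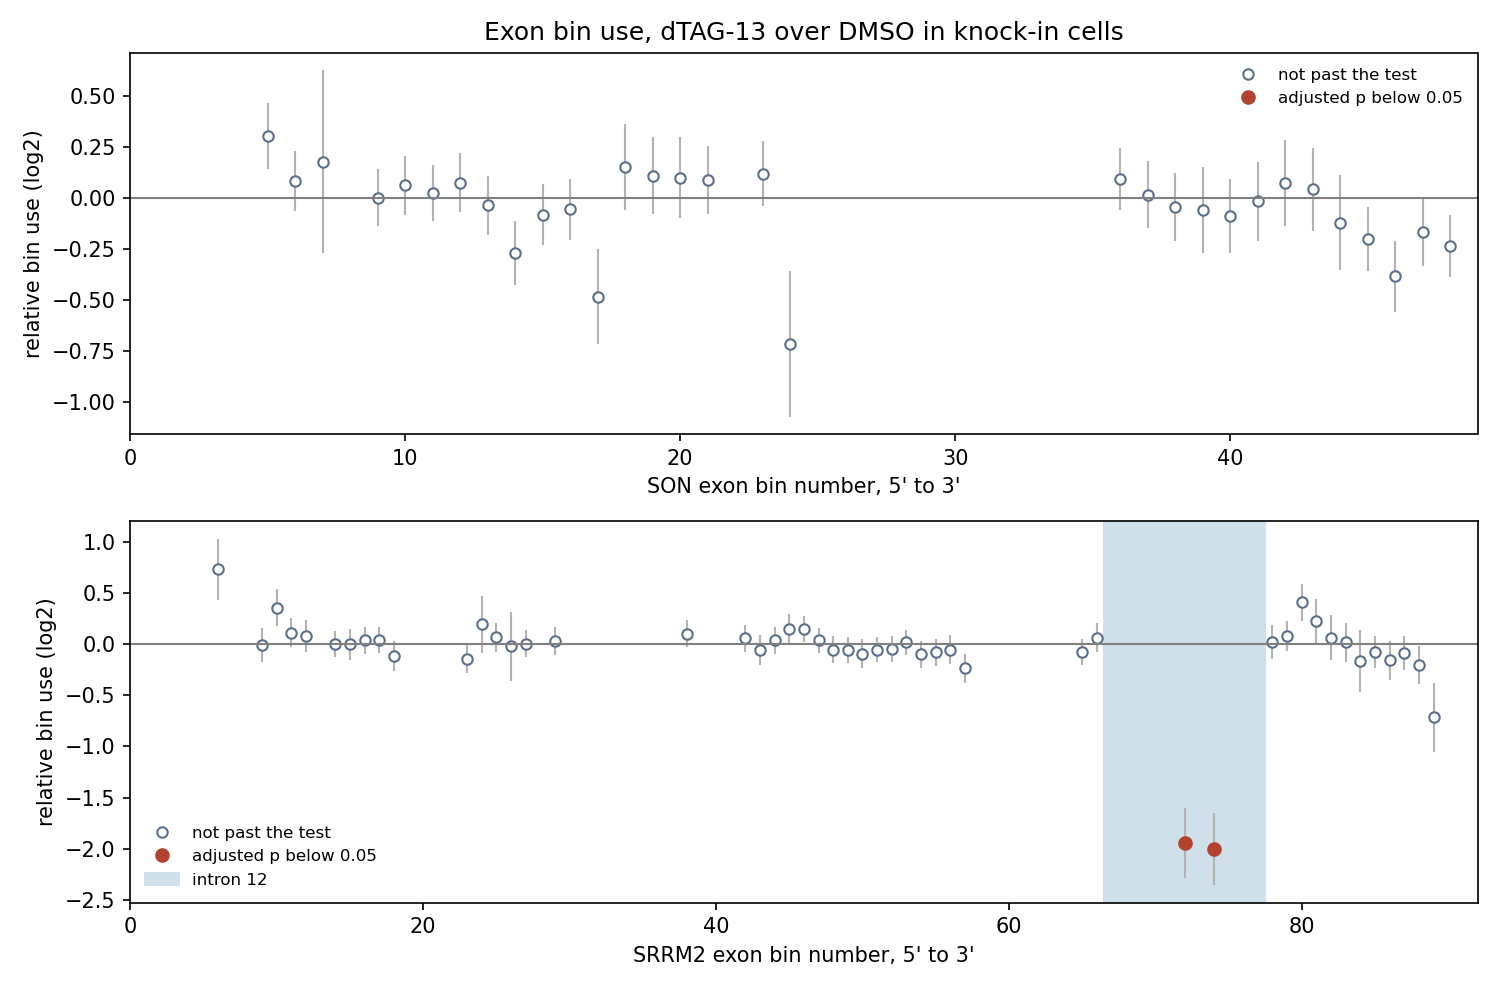
Relative use of each tested exon bin (log2, dTAG-13 over DMSO, bars of 1 SE) along SON and SRRM2, numbered 5′ to 3′, with intron 12 of SRRM2 shaded. The 2 filled points, SRRM2 bins 072 and 074 at −1.94 and −2.01, are the only ones of 31 SON and 49 SRRM2 bins past the test.

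The long exons themselves kept their share. The bins of exon 3 of SON (chr21:33549476-33555391, 5916 bases) cover 5849 of its bases. They held 57.9 ± 1.04% of SON bin counts with dTAG-13 and 56.8 ± 1.04% with DMSO. Exon 11 of SRRM2 (chr16:2761561-2768261, 6701 bases) held 72.3 ± 1.25% with dTAG-13 and 72.3 ± 0.868% with DMSO. Over all 6 groups with bin counts their means stayed at 54.5 to 57.9% and 70.0 to 72.3%.

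Other genes of the speckle were followed in lists drawn from their known roles. With dTAG-13, 1 of 11 SR proteins tested fell, SRSF11 (log2 fold change −0.29 ± 0.06, edgeR adjusted p = 0.0271), and none rose. Of 31 SR-related and other speckle genes 8 fell and 1 rose, where 3.09% of all genes were called lower. The splicing-related cyclophilin NKTR fell by 0.58 on the log2 scale (edgeR adjusted p = 0.0015), and the splicing regulators SREK1, RBM25 and RBM39 fell by 0.43, 0.43 and 0.35. MALAT1, the long noncoding RNA that resides in speckles, was the gene that rose (0.33, edgeR adjusted p = 0.0078). The list medians were −0.15 for SR proteins and −0.12 for SR-related genes, beside −0.01 for all genes.

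Of 9 kinases that act on splicing factors, CLK2 fell by 0.83 (edgeR adjusted p = 0.0015) and PRPF4B rose by 0.30 (edgeR adjusted p = 0.0119). Of 9 spliceosome partners of the SRRM2 family, such as CWC22 and PRPF8, none passed the test (1 at an unadjusted p below 0.05, edgeR). Of 12 tested genes that are described as needing SON for their splicing or transcription, 3 fell and none rose. These were the mitotic kinase AURKB (−0.59), the spindle pole protein WDR62 (−0.67) and the γ-tubulin gene TUBG1 (−0.46). The median of this list was −0.20. Over all genes tested with dTAG-13, 3.09% were called lower and 1.57% higher.

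In wild-type cells DNMT1i went with less SRRM2 RNA in HCT116 cells, and in K562 cells a decrease did not pass the test. HCT116 cells had 707, 750 and 655 CPM with DNMT1i, against 868, 1026 and 963 CPM with DMSO, and the groups did not overlap. The log2 fold change was −0.41 ± 0.08, a level of 0.752 times that in DMSO (edgeR adjusted p = 0.000188), and the call held in all 6 fits that left out 1 library. In this line 61.6% of the 15885 genes tested were called, and 51.0% of genes changed by less than SRRM2, so the value is near the middle of the response.

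K562 cells had 1079, 1090 and 1215 CPM with DNMT1i, against 1251, 1260 and 1466 CPM with DMSO. The groups did not overlap, and the log2 fold change was −0.23 ± 0.09 (edgeR adjusted p = 0.172), in a comparison that called 8.84% of 13726 genes. Without DMSO replicate 3, the highest library, the log2 fold change was −0.14 (edgeR adjusted p = 0.0859). The difference between the responses of the lines was 0.19 ± 0.13 (K562 minus HCT116, edgeR adjusted p = 0.282), where 29.8% of 17237 genes differed. It was 0.28 (edgeR adjusted p = 0.0454) without K562 DMSO replicate 3, so whether the lines differ rests on that library.

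SON showed no call with DNMT1i in either line. K562 cells had 886, 937 and 1033 CPM with DNMT1i, against 957, 1016 and 997 CPM with DMSO, which overlap (log2 fold change −0.05 ± 0.08, edgeR adjusted p = 0.777; −0.03 without DMSO replicate 3). HCT116 cells had 605.9, 558.6 and 561.9 CPM with DNMT1i, against 561.6, 561.3 and 527.1 CPM with DMSO, which overlap as well (0.09 ± 0.07, edgeR adjusted p = 0.286). The responses of the lines differed by −0.13 ± 0.11 (edgeR adjusted p = 0.384), and by −0.12 without K562 DMSO replicate 3.

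Under DNMT1i 1 bin of the pair of genes was called. In K562 cells none of 35 SON and 55 SRRM2 bins was called by edgeR, and none had an unadjusted p below 0.05, where 0.0492% of all 186972 bins were called. In HCT116 cells none of 34 SON bins was called (3 at an unadjusted p below 0.05), and 1 of 51 SRRM2 bins was, where 0.86% of 201926 bins were called and 0.605% were called higher. That bin was 073, the start of the NMD exon in intron 12, with 29, 41 and 24 counts with DNMT1i and 12, 17 and 21 counts with DMSO. Its relative use rose by 1.097 ± 0.30 on the log2 scale (edgeR adjusted p = 0.0417). The call was lost in every fit that left out 1 library (adjusted p from 0.0744 to 0.3004) and with limma (0.0748).

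The whole of intron 12 held 0.740 ± 0.081% of SRRM2 counts with DNMT1i and 0.506 ± 0.084% with DMSO in HCT116 cells, and the groups did not overlap. Its NMD exon (bins 073 and 074) held 85, 109 and 79 counts with DNMT1i, 0.426 ± 0.020% of SRRM2, and 48, 66 and 61 counts with DMSO, 0.238 ± 0.010%, again without overlap. The binned part of intron 11 held 0.206 ± 0.026% with DNMT1i and 0.136 ± 0.020% with DMSO, also without overlap. These sums have no test of their own, and bin 074 alone did not pass (log2 change in use 0.71 ± 0.22, edgeR adjusted p = 0.119). In wild-type K562 cells intron 12 held 0.720 ± 0.219% with DNMT1i and 0.737 ± 0.091% with DMSO, which overlap. The dTAG-13 libraries therefore had the lowest share of the 6 groups.

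**Figure D4:**
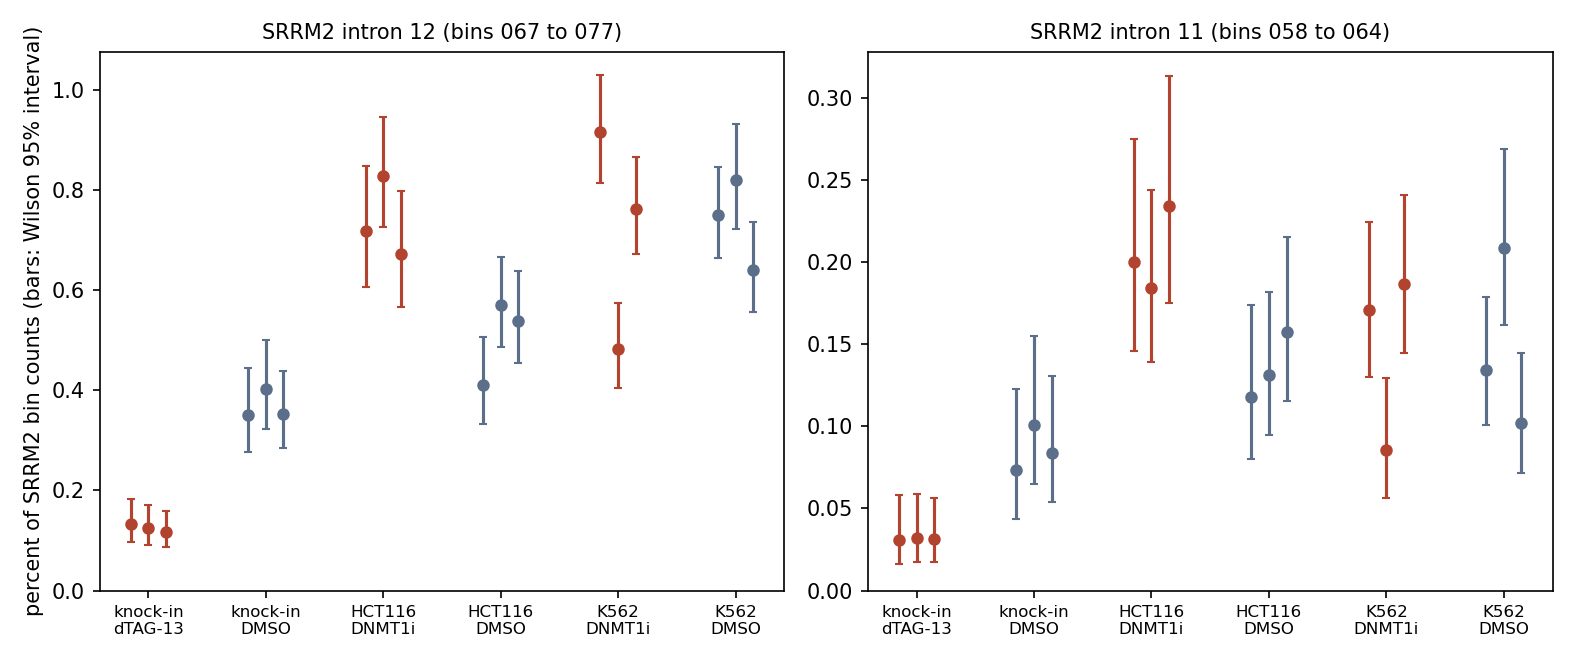
Share of SRRM2 bin counts in intron 12 (left) and intron 11 (right) in each of the 18 libraries, in percent, with Wilson 95% intervals. The intervals leave out variation between cultures and, for these sums of bins, are too narrow even for counting error. Intron 12 is at 0.117 to 0.133% in the 3 dTAG-13 libraries, against 0.351 to 0.402% in knock-in DMSO libraries and at or above 0.411% in all wild-type libraries.

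With DNMT1i in K562 cells no gene of the speckle lists passed edgeR's test. None of 11 SR proteins, 31 SR-related genes, 9 kinases, 9 spliceosome partners or 12 SON-dependent genes was called, where 1, 8, 1, 1 and 3 of them in that order had an unadjusted p below 0.05 and 8.84% of all genes were called. That count rests on DMSO replicate 3. Without it 24.1% of all genes were called, with 4 SR proteins (2 higher, 2 lower), 11 SR-related genes (3 higher, 8 lower), no kinase, 3 spliceosome partners (2 higher, 1 lower) and 3 SON-dependent genes (all higher). In HCT116 cells, where most genes moved, 5 of 12 SR proteins rose and none fell, including SRSF12 (log2 fold change 6.96) and SRSF5 (0.42). Between the lines in DMSO 11 SR proteins passed the filter on low counts, without SRSF12. It entered the HCT116 test through the DNMT1i libraries, so its call and size rest on low counts in DMSO. SR-related genes were split, with 8 higher and 8 lower of 30. Of 9 kinases 4 rose and 1 fell, of 9 spliceosome partners 1 rose and 3 fell, and of 12 SON-dependent genes 1 rose and 5 fell, AURKB by 1.101. Of all genes 33.8% were called higher and 27.9% lower.

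HaloPROTAC3, given to degrade CTCF, went with more SRRM2 and SON RNA in HT-CTCF cells kept in DMSO. SRRM2 had 1002, 1244 and 1126 CPM with HaloPROTAC3, against 845, 803 and 906 CPM without it, and the groups did not overlap. The log2 fold change was 0.39 ± 0.08 (edgeR adjusted p = 0.000347), and the call held in all 6 fits that left out 1 library. SON had 504, 593 and 533 CPM with HaloPROTAC3, against 497, 461 and 437 CPM without it, again with no overlap. Its log2 fold change was 0.21 ± 0.07 (edgeR adjusted p = 0.0339), in a comparison that called 17.3% of 12690 genes, 10.1% higher. The SON call was lost in 4 of the 6 fits, with HaloPROTAC3 DMSO replicate 2 or 3, or replicate 2 or 3 of the DMSO group without it, left out (adjusted p up to 0.232), and with replicate numbers as a block (0.0501).

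Under DNMT1i the same comparison gave no call. SRRM2 had 937, 848 and 806 CPM with HaloPROTAC3 and 913, 918 and 885 CPM without it, which overlap (log2 fold change −0.08 ± 0.08, edgeR adjusted p = 0.508). SON had 477, 462 and 498 CPM with HaloPROTAC3 and 460, 451 and 441 CPM without it, which did not overlap (0.08 ± 0.07, edgeR adjusted p = 0.469). Of all genes 22.4% were called.

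The response to 1 day of DNMT1i was the other side of the same 4 groups. With HaloPROTAC3, SRRM2 fell with DNMT1i by 0.37 ± 0.08 on the log2 scale (edgeR adjusted p = 0.00301), where 5.41% of genes were called and 2.55% were called lower. Without HaloPROTAC3 its log2 fold change was 0.10 ± 0.08 (edgeR adjusted p = 0.576), where 2.48% of genes were called. The interaction, the difference between those responses, was −0.47 ± 0.11 with an edgeR adjusted p of 0.0519, just outside the threshold that 0.268% of genes passed. DESeq2 placed it inside (0.00397), as did edgeR with no filter on low counts (0.00115). For SON, the log2 fold changes with DNMT1i were −0.17 ± 0.07 with HaloPROTAC3 (edgeR adjusted p = 0.157) and −0.04 ± 0.07 without it (0.863), with an interaction of −0.14 ± 0.10 (0.575). These comparisons share groups, so they are not independent.

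Between the lines, SON RNA was higher in K562 cells. In DMSO, SON had 957, 1016 and 997 CPM in K562 cells, against 561.6, 561.3 and 527.1 CPM in HCT116 cells, a log2 fold change of 0.71 ± 0.08 (edgeR adjusted p = 4.06e-06). SRRM2 had 1251, 1260 and 1466 CPM in K562 cells, against 868, 1026 and 963 CPM in HCT116 cells, a log2 fold change of 0.34 ± 0.10 (edgeR adjusted p = 0.00912). Neither pair of groups overlapped, but 79.3% of 15160 genes were called, 38.1% higher. Without K562 DMSO replicate 3 the log2 fold changes were 0.71 for SON and 0.27 for SRRM2, and both calls held. SON ranked 5967 by p, and 40.3% of genes differed by less.

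None of 34 SON bins differed in use between the lines in edgeR's test (0 at an unadjusted p below 0.05), and 1 of 52 SRRM2 bins did, where 2.6% of 202803 bins were called and 1.41% were called higher. Bin 070 (chr16:2769455-2769547), also in intron 12, held 28, 21 and 23 counts in K562 cells and 4, 8 and 7 counts in HCT116 cells. Its relative use was higher in K562 cells by 1.53 ± 0.40 on the log2 scale (edgeR adjusted p = 0.00754). The call was lost without K562 DMSO replicate 1 and without HCT116 DMSO replicate 1 or 3 (adjusted p up to 0.0777).

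The knock-in clone had less RNA of both tagged genes than wild-type K562 cells, each in DMSO. SON had 690, 747 and 724 CPM in the knock-in, against 957, 1016 and 997 CPM in wild type (log2 fold change −0.42 ± 0.07, edgeR adjusted p = 0.000453). SRRM2 had 740, 796 and 886 CPM in the knock-in, against 1251, 1260 and 1466 CPM in wild type (−0.68 ± 0.10, edgeR adjusted p = 0.000252). No library of the knock-in reached a wild-type library. Without wild-type replicate 3 the log2 fold changes were −0.40 and −0.59, and both calls held. In the same comparison 64.7% of 13907 genes were called and 32.8% were called lower. Tag, clone, length of DMSO treatment and experiment differ together between these groups and cannot be told apart.

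In SON, the largest changes in use were in the bins before the start codon. Reads were aligned to hg38, without the inserted tags, and whether reads of tagged RNA were fully counted beside the tags was not tested. Bins 001 to 004 of SON (chr21:33543038-33543069), which end 23 bases before the start codon, together held 3, 4 and 11 counts in knock-in DMSO libraries, against 555, 386 and 296 counts in wild-type DMSO libraries. The dTAG-13 libraries of the knock-in held 2, 11 and 27 counts, also below every wild-type library. As a share of SON bin counts these 4 bins held 0.0354 ± 0.0254% in the knock-in and 1.87 ± 0.331% in wild type. Bins 002, 003 and 004 had log2 changes of −5.40, −5.67 and −5.88 (edgeR adjusted p of 4.66e-27 or less), and they share most of their reads, since a read that starts in bin 002 also covers bins 003 and 004. Bin 001, 14 bases long, was called too, from 2 counts in the knock-in.

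Bin 005, which holds the start codon and the sequence shown above, was lower by less. It held 227, 206 and 283 counts in the knock-in and 670, 501 and 405 counts in wild type, a log2 change in use of −0.76 ± 0.16 (edgeR adjusted p = 0.00188). The call was lost without knock-in DMSO replicate 1 or 2 or wild-type replicate 1 (adjusted p up to 0.0897). In all, 5 of 35 SON bins were lower and none higher, where 2.03% of 184684 bins were called, 1.09% higher and 0.944% lower.

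At the other tag, SRRM2 bins 080 to 083 (chr16:2770604-2771049) run from exon 14 to 182 bases past the stop codon. They held 156, 149 and 232 counts in knock-in DMSO libraries, 0.863 ± 0.143% of the gene, against 800, 609 and 863 counts in wild-type DMSO libraries, 2.43 ± 0.361%. The dTAG-13 libraries held 260, 261 and 445 counts (0.838 to 1.27%). Bin 081, with the stop codon, fell by 1.90 ± 0.22 on the log2 scale (edgeR adjusted p = 5.19e-12), bin 082 by 1.63 ± 0.23 and bin 080 by 1.56 ± 0.20. More of the share remained here than at the SON bins before the start codon, but those bins leave out bin 005. SON bins 001 to 005 together held 1.45 ± 0.255% of SON counts in the knock-in and 4.28 ± 0.603% in wild type, both in DMSO. Bin 089, the last 2 bases of SRRM2-201, with 2 annotated bins beyond it, held 17, 15 and 15 counts in the knock-in and 1, 2 and 1 counts in wild type, a log2 change of 4.05 ± 0.55 (edgeR adjusted p = 2.88e-09).

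Intron 12 of SRRM2 was lower in the knock-in even without dTAG-13, at 0.369 ± 0.029% of SRRM2 counts, against 0.737 ± 0.091% in wild-type K562 cells. Bin 070 fell by 1.82 ± 0.43 on the log2 scale (edgeR adjusted p = 0.00272) and bin 072 by 0.999 ± 0.26 (edgeR adjusted p = 0.0135). The bin 072 call was lost in 5 of the 6 fits that left out 1 library and bin 070 in 1, without knock-in DMSO replicate 1. Of 53 SRRM2 bins 7 were lower and 2 higher. The bins beyond the 6 with the smallest p, named after their values were seen, were 083, 071 and 057. With replicate numbers as a block, 4 SRRM2 bins and 1 SON bin were higher.

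**Figure D5:**
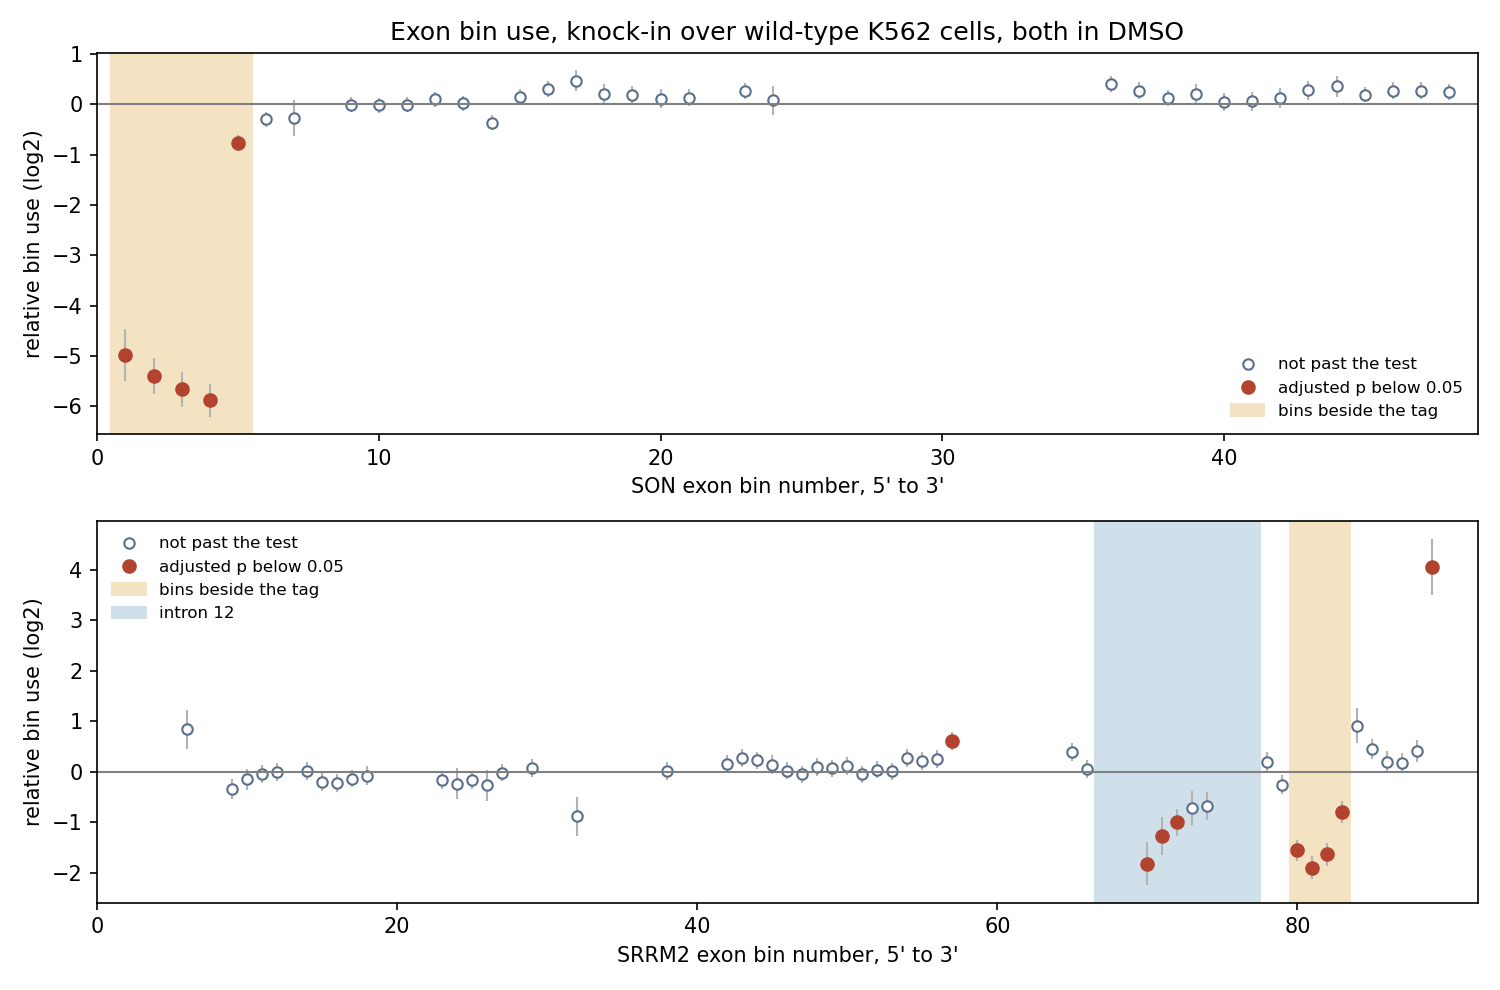
Relative use of each tested exon bin (log2, knock-in over wild-type K562, both in DMSO, bars of 1 SE) along SON and SRRM2, numbered 5′ to 3′, with bins beside the tags and intron 12 shaded. SON bins 001 to 004 lie near −5 and below, SRRM2 bins 080 to 083 between −1.90 and −0.80, and SRRM2 bin 089 at 4.05.

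The gene-level difference between the knock-in and wild type was also present without those bins. Summed over exon bins without the ones beside the tags, the log2 fold change was −0.37 ± 0.06 for SON (edgeR adjusted p = 0.000694) and −0.64 ± 0.09 for SRRM2 (edgeR adjusted p = 0.000153). For dTAG-13 the same sums gave 0.14 ± 0.06 for SON (edgeR adjusted p = 0.217) and 0.40 ± 0.06 for SRRM2 (edgeR adjusted p = 0.0071), and without intron 12 SRRM2 was at 0.41 (edgeR adjusted p = 0.00709).

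Genes next to SON were lower in the knock-in clone too. Of 8 neighbours tested 6 fell and none rose, where 32.8% of all genes were called lower, with a list median of −0.88 beside −0.01 for all genes. They were ITSN1 (−1.16), CRYZL1 (−1.07), IFNGR2 (−1.07), DONSON (−0.94), GART (−0.81) and ATP5PO (−0.28), while TMEM50B (−0.34) and DNAJC28 (0.60) did not pass. Of 8 neighbours of SRRM2 none fell and 3 rose, close to the 31.9% of all genes that were called higher. They were the antisense RNA SRRM2-AS1 (1.66), the mitotic inhibitor kinase PKMYT1 (0.76) and PAQR4 (0.46). ELOB (0.28), FLYWCH1 (0.07), FLYWCH2 (0.18), KREMEN2 (0.28) and TNFRSF12A (0.07) did not pass the test. SRRM2-AS1 did not pass the filter on low counts between DNMT1i and DMSO in wild-type K562 cells. Its call and size in the knock-in, and its place in the count of 3, therefore rest on low counts in wild type. Without wild-type replicate 3, 6 SON neighbours were again lower, with TMEM50B (−0.60) past the test in place of ATP5PO (−0.17), and ELOB (0.43) joined the SRRM2 neighbours that were higher. Exons of SRRM2-AS1 overlap no SRRM2 bin in the annotation. What part of the lower SON level belongs to its chromosomal neighbourhood in this clone was not tested.

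With dTAG-13 none of the 8 SON neighbours passed the test (1 at an unadjusted p below 0.05, edgeR), from DONSON (−0.15) to GART (0.00), and of the SRRM2 neighbours PKMYT1 fell by 1.16 (edgeR adjusted p = 0.000183). With DNMT1i, ITSN1 rose in K562 cells (0.36) and in HCT116 cells (0.73), and CLDN6, a claudin gene beside SRRM2, rose by 4.48 in K562 cells and 7.29 in HCT116 cells. CLDN6 did not pass the filter on low counts between knock-in and wild-type K562 cells in DMSO. Its call and size in K562 cells therefore rest on low counts in DMSO. Between the lines in DMSO, 8 of 10 SRRM2 neighbours passed that filter. No other neighbour passed edgeR's test with DNMT1i in K562 cells, but without DMSO replicate 3 TMEM50B (0.28), ELOB (0.34) and FLYWCH2 (0.60) did too. Of the neighbours tested in HCT116 cells, 2 of 8 at SON and 3 of 10 at SRRM2 rose and 2 and 2 fell, where 33.8% of all genes were called higher and 27.9% lower. In that line TMEM50B (1.22), PRSS33 (2.38) and PAQR4 (0.27) rose, and ATP5PO (−0.61), CRYZL1 (−0.34), PKMYT1 (−0.77) and FLYWCH1 (−0.42) fell. SRRM2 neighbours that did not pass the filter between the lines in DMSO entered the HCT116 test through the DNMT1i libraries. The sizes for PRSS33 and CLDN6 in HCT116 cells, and the count of 3 of 10, may therefore rest on low counts in DMSO.

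DONSON lies on the opposite strand and its exons overlap 5 SON bins, which held 6.95 to 9.44% of SON bin counts, and ELOB overlaps 2 SRRM2 bins that held at most 0.0105%. The sources do not say whether counting used strand, so those shares bound what reads of DONSON or ELOB could add to these bins.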

How the data were processed

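RNA of 30 libraries in 10 groups of 3 was measured by poly(A)-selected RNA-seq with molecular identifiers. Per the submitters' processing notes, UMI-tools 1.1.1, cutadapt 2.7, STAR 2.6.0, HTSeq and hg38 were used. The authors deposited raw counts of deduplicated reads per gene and per exon bin, with no normalization. Whether counting used strand is not stated, and 17.1 to 23.6% of counts were unassigned to a gene and left out. Other deposited tables hold the authors' own fold changes and p-values, which were not used, nor were their 18 columns of per-sample values. Bin positions were read from the table of the speckle comparison.

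Genes were tested with edgeR 4.0.16 (R 4.3.3; TMM, filterByExpr, quasi-likelihood F test) and bins with diffSpliceDGE, since the tool of the study's exon test was not installed. P-values were adjusted by Benjamini-Hochberg over all genes or bins tested, with calls at 0.05. Standard errors (SE) were taken as the absolute log2 fold change divided by the square root of F. Each 2-group comparison had its own fit, and HT-CTCF groups shared one. Both steps were tested on simulated data. Precision follows the total counts per library (4243092 to 21228534). Wilson 95% intervals treat each bin count as a separate read, so for sums of bins they are too narrow even for counting error. Sequences and exons came from hg38 with GENCODE release 44.

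Alternatives were DESeq2 1.42.0, other scaling, no filter, limma 3.58.1 for bins, a replicate block and leaving out each library. Summed exon bins without those beside the tags or in intron 12, and lists without K562 DMSO replicate 3, were added after seeing the data. Some list members are not reported here and were left out of list counts and sums. The members, lists and tests were chosen with earlier results of these data known. SON and SRRM2 were always named, with up to 6 called bins per gene, up to 4 list members with the smallest p, all neighbours tested, and 3 genes by likeness. Deviations of same-numbered knock-in and wild-type DMSO libraries were correlated (all 3 above 0.1, lowest 0.106), and in no other comparison were all 3 above 0.1. Clone, length of treatment and experiment differ between the knock-in and wild-type groups, so these correlations do not show paired cultures.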

Additional observations from a re-analysis of the deposited data

How the results depend on the processing

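In the alternatives run, SRRM2 kept its direction in every gene-level comparison, and SON did so in all but 1. SRRM2 with dTAG-13 stayed between 0.36 and 0.50 when 1 library was left out, with adjusted p up to 0.0601. SON with DNMT1i in HT-CTCF cells without HaloPROTAC3, not called, ran from −0.083 to 0.019, the positive value coming without DMSO replicate 1. SON with HaloPROTAC3 in DMSO ran from 0.15 to 0.27. The SRRM2 interaction of HaloPROTAC3 and DNMT1i passed the threshold with DESeq2 (−0.47, adjusted p = 0.00397) and with no filter on low counts (−0.49, adjusted p = 0.00115), and ran from −0.55 to −0.39 without 1 library (adjusted p 0.00785 to 0.189). The difference of the SRRM2 responses to DNMT1i between K562 and HCT116 cells ran from 0.13 to 0.28. The cause of these changes was not tested.

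Counts of called bins were small and moved with the test. The SRRM2 bins higher with DNMT1i in HCT116 cells were 0 with limma and 0 in every fit without 1 library. Between K562 and HCT116 cells, 2 SRRM2 bins were higher with limma and 2 with bins of a mean of at least 1 count, and leaving out 1 library gave 0 to 2 SRRM2 and 0 to 2 SON bins. Between the knock-in and wild type, 1 SRRM2 bin was higher with the filter at a mean of 1 count, and leaving out 1 library gave 1 to 3 higher and 3 to 6 lower SRRM2 bins. CPM levels depend on the scaling and per-kilobase levels on the bins used for length.

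With replicate numbers as a block, SON with dTAG-13 passed the threshold (0.15, adjusted p = 0.0177) and SON with HaloPROTAC3 in DMSO did not (0.21, adjusted p = 0.0501). The block gave 1 higher SON bin and 4 higher SRRM2 bins in the knock-in, and it changed no other gene-level call or count of bins by over 1.5 times. Low bin counts limit what can be seen within introns.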
